A study of Homo sapiens with 6 samples.

Results

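The mitochondrial ribosomal protein genes are the nuclear genes named MRPL or MRPS followed by a number, and they were chosen by that name alone. Rbfox1 is a protein that regulates splicing and works within LASR, an assembly of many splicing regulators, and the RNA that such complexes shielded from nuclease was sequenced. All cells were HEK293 Flp-In, a human embryonic kidney line with a site for inserting a transgene, and all carried the same Rbfox2 knockout, clone 7. There were 2 libraries with FLAG-Rbfox1(F125A), in which a phenylalanine of the RNA recognition motif is replaced, and 3 with FLAG-Rbfox1(WT). A control library without a transgene was not analysed here, and RNA recovered in the absence of the FLAG tag was not subtracted here. Whether the deposited lists had already been cleared of such RNA is not stated. Each Rbfox1 group has 1 deposited list of clusters, that is intronic places of protein-coding genes covered by sequenced RNA, on hg38. The F125A list held 188027 different clusters and the WT list 366429, or 51.3 F125A clusters for each 100 WT clusters. Of these 554456 clusters, 1108 lay in 69 mitochondrial ribosomal protein genes, out of 11805 genes that some cluster names without a second gene. The lists hold no read counts, so read depth and replicate error are unknown, no test of the conditions was possible, and every interval below is a 95% interval that covers counting error only.

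Mitochondrial ribosomes translate the few proteins encoded by mitochondrial DNA, which are subunits of the oxidative phosphorylation complexes. Their proteins are all made in the cytosol from nuclear genes and imported, whereas their ribosomal RNA comes from the mitochondrial genome. Some of these proteins have a counterpart in bacterial ribosomes and others are specific to mitochondria. The clusters lie in introns, so they come from RNA that still held introns or from the introns themselves. The number of clusters in a gene depends on how much of its intronic RNA is made, on intron length and on binding, and these cannot be told apart here.

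Of 6 genes listed as markers of HEK293 cells, 3 had F125A clusters and 4 had WT clusters, 20 and 51 in all, and PAX8 and NEFM had none. Of 10 markers of liver, blood, muscle, pancreas and glia, none had an F125A cluster and PTPRC alone had a WT cluster, 1 in all. Sequence was read for 5 clusters that lie whole inside a 300-base window of RefSeq's table of gene starts (GRCh38.p14). Not all chromosomes were searched, so further clusters may lie inside such windows. The 5 are shown because they are the only letters of protected RNA from these genes that were read. They are written 5′ to 3′ on the transcribed strand as DNA. Capitals mark GGGG and TTTTT, runs of the kind bound by hnRNP H and hnRNP C, which are LASR proteins.
MRPS27 F125A cluster, chr5:72295567-72295657, minus strand: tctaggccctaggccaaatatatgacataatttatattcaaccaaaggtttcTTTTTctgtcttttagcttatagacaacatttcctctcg
MRPL14 F125A cluster, chr6:44127311-44127364, minus strand: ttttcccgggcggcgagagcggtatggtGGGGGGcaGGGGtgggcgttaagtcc
MRPL14 WT cluster, chr6:44127307-44127348, minus strand: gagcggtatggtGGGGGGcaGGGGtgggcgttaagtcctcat
MRPL14 WT cluster, chr6:44126248-44126300, minus strand: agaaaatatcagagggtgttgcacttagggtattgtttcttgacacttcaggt
MRPL3 WT cluster, chr3:131502357-131502391, minus strand: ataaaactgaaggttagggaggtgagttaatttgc

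The MRPS27 cluster overlapped no WT cluster, and the first MRPL14 pair overlapped each other. GCATG, the pentamer that Rbfox proteins bind, was in none of the 5. It was found in 5.94% of the first 91 bases of the 35116 windows, read on the strand of their own gene, and in 2.24% of the first 35 bases. TTTTT stood once, in the MRPS27 cluster, and in 11.1% of windows at that length. GGGG stood in both clusters of the MRPL14 pair, and in 25.7% of windows cut to the first 54 bases. No letter was shared between matches of different motifs. The windows lie around the annotated starts of MRPL14 and of uncharacterised loci inside MRPL3 and MRPS27, so the 5 are no sample of the 1108, and the absence of a match says only that those letters are not in them.

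Mitochondrial ribosomal protein genes gave F125A and WT clusters in nearly the proportion of the whole lists. They held 387 F125A clusters, 0.206% of that list (exact interval 0.186 to 0.227%), and 721 WT clusters, 0.197% of that list (0.183 to 0.212%). That is 53.7 F125A clusters for each 100 WT clusters. The pooled log2 ratio of F125A over WT clusters, scaled so that 0 is the ratio of both whole lists, was 0.06 (exact binomial interval -0.12 to 0.25), so the interval includes 0. Clusters were spread unevenly: the 4 genes with most clusters, MRPS27, MRPL3, MRPS28 and MRPS6, held 32.6% of the F125A and 35.6% of the WT clusters. The median gene held 3 F125A and 4 WT clusters, against 6 and 11 over all genes named alone. The member genes are short, with a median annotated length of 10.99 kb against 41.2 kb for all genes. Per 10 kb of gene they held a median of 6.18 clusters of both lists together, against 5.35 for all genes.

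A log2 ratio for a single gene, with 1 added to both counts and the list totals subtracted, was used where both lists together held at least 20 clusters. This applied to 17 of the 69 genes, 7 of the large and 10 of the small subunit, and the other 52 had too few. None of the 17 lay 2-fold or more toward F125A, against 1.99% of the 5626 genes that passed the same minimum, and none lay 2-fold or more toward WT, against 2.51%. With 17 genes, shares of that size give less than 1 gene, so the absence is not a result about these genes. Above 0 lay 11 of the 17, against 53.5% of all. The median ratio was 0.19 (interval of the median -0.15 to 0.42), against 0.04 (0.02 to 0.05) over all 5626 genes. All 17 had fewer F125A than WT clusters, as the shorter F125A list would give at a ratio of 0.

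**Figure D1:**
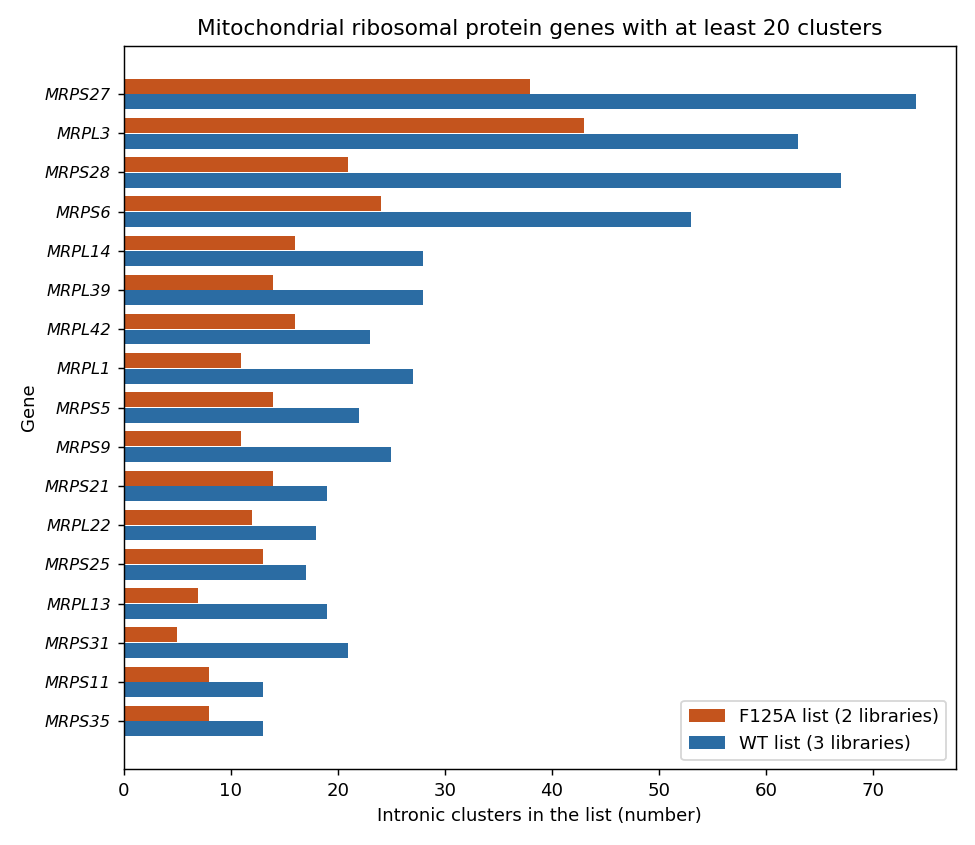
Number of intronic clusters in each list (horizontal axis) for the 17 mitochondrial ribosomal protein genes with at least 20 clusters, F125A above WT in each pair of bars. Every gene has more WT clusters, and MRPS27 (38 F125A, 74 WT) and MRPL3 (43 F125A, 63 WT) have the most in both lists together.

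Among genes of the large subunit, MRPL3 had the most clusters in each of the lists. MRPL3 encodes a member of the universal ribosomal protein L3 family near the peptidyl transferase centre, and lies at chr3:131462212-131502971. It had 43 F125A and 63 WT clusters, a log2 ratio of 0.42 (interval -0.18 to 0.99), in a gene of 40.8 kb. This is 26.0 clusters of both lists per 10 kb, below MRPL14 alone among the 17. MRPL14, of the L14 family, at chr6:44113451-44127452, had 16 F125A and 28 WT clusters (0.19, -0.83 to 1.09) in 14002 nt, or 31.4 per 10 kb. MRPL39, a mitochondria-specific protein related to threonyl-tRNA synthetase, at chr21:25585656-25607859, had 14 F125A and 28 WT clusters (0.01, -1.08 to 0.94). MRPL42, also specific to mitochondria, had 16 and 23, a log2 ratio of 0.47 (-0.58 to 1.42), the highest of the 7 large subunit genes. MRPL22, of the L22 family that lines the exit tunnel, had 12 F125A and 18 WT clusters (0.42). On the other side of 0, MRPL1, of the L1 family, had 11 F125A and 27 WT clusters (-0.26) and MRPL13, of the L13 family, 7 and 19 (-0.36). All 7 intervals include 0.

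Among genes of the small subunit, ratios ranged from -0.91 to 0.60. MRPS27, a pentatricopeptide repeat protein at chr5:72219403-72320240, had 38 F125A and 74 WT clusters, the most of any member in both lists together, and a ratio of 0.02 (-0.60 to 0.58). MRPS28, whose gene is 112 kb long on chromosome 8, had 21 F125A and 67 WT clusters (-0.67, -1.49 to 0.01). MRPS31, specific to mitochondria, had 5 F125A and 21 WT clusters, the lowest ratio (-0.91, -2.87 to 0.34). RefSeq lists 3 pseudogenes named after MRPS31, the longest of 26.8 kb, so reads of near-identical copies could be misplaced and its counts are uncertain. MRPS25 (13 F125A, 17 WT, 0.60) and MRPS21, of the bacterial S21 family (14 and 19, 0.55), had the highest ratios, with intervals of -0.59 to 1.70 and -0.59 to 1.59. Between these lay MRPS5 (14 F125A, 22 WT, 0.35), MRPS11 and MRPS35 (8 F125A and 13 WT each, 0.33), MRPS9 (11 and 25, -0.15) and MRPS6 (24 and 53, -0.15). MRPS5, MRPS9 and MRPS11 have bacterial counterparts of the same number, and MRPS35 is specific to mitochondria. All 10 intervals include 0. Differences between single genes were not computed, so the order of the genes is not read as a result.

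The subunits gave similar ratios. The 42 MRPL genes held 188 F125A and 334 WT clusters, a pooled log2 ratio of 0.13 (-0.13 to 0.40), and the 27 MRPS genes 199 and 387, 0.00 (-0.25 to 0.25). The difference, MRPL minus MRPS, was 0.13 with an interval of -0.23 to 0.49. With the clusters that name both MRPS6 and SLC5A3 counted for MRPS6, it was -0.08 (-0.42 to 0.25), but those 78 clusters are the same in both lists, so adding them raises the MRPS ratio by construction. The names do not follow structure in every case: MRPS18A and MRPS30 sit in the large subunit of the human mitoribosome, and MRPS36 is now named KGD4, a part of the oxoglutarate dehydrogenase complex. Proteins with a bacterial counterpart had 129 F125A and 218 WT clusters in 29 large subunit genes (0.21, -0.12 to 0.53) and 119 and 234 in 17 genes of the small subunit families (-0.01, -0.34 to 0.31). The 23 remaining MRP genes had 139 and 269 (0.01, -0.30 to 0.31).

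The ratio of F125A to WT clusters was lower in longer genes over the whole series, and it also fell with length in mitochondrial ribosomal protein genes. In each class of length the members lay below all genes, with intervals that include the value for all genes. In the 56 member genes under 30 kb there were 184 F125A and 301 WT clusters, a pooled log2 ratio of 0.25 (-0.02 to 0.52), against 0.43 (0.41 to 0.45) for all 4768 genes of that length. In the 11 members of 30 to 100 kb, with 144 F125A and 279 WT clusters, it was 0.01 (-0.29 to 0.30), against 0.11 (0.09 to 0.12) for all genes. In the 2 members over 100 kb, MRPS27 and MRPS28, it was -0.29 (-0.76 to 0.15), against -0.17 (-0.18 to -0.16). After the median of genes of similar length was subtracted, in 20 bins of length, the 17 genes had a median log2 ratio of -0.21 (-0.42 to 0.09), with 7 above and 10 below 0. Above 0 lay 49.4% of all genes on this scale. MRPS31 then lay at -1.11, and no other of the 17 reached 2-fold toward WT, against 2.12% of all genes, while none lay 2-fold or more toward F125A, against 0.462%. The sign of the group's median thus turned with this correction, while both intervals include 0.

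**Figure D2:**
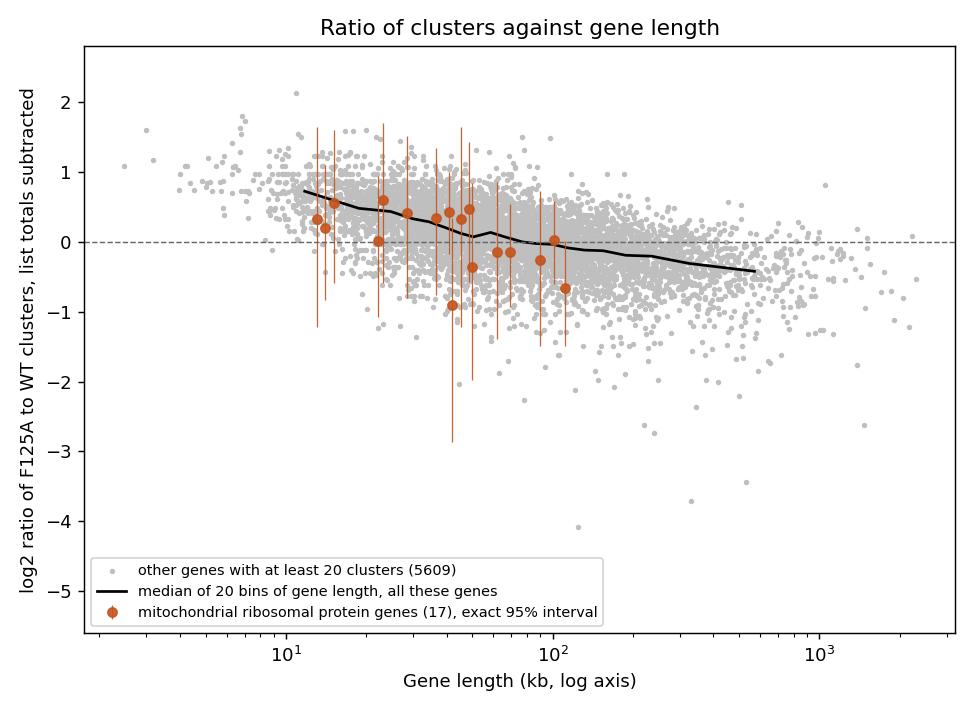
Log2 ratio of F125A to WT clusters, list totals subtracted (vertical axis), against annotated gene length in kb (log axis), for the 17 mitochondrial ribosomal protein genes with exact 95% intervals (orange), the other genes with at least 20 clusters (grey) and the median in 20 bins of length (line). The 17 genes lie between -0.91 and 0.60, around a line that falls with length.

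Cytosolic ribosomal protein genes and oxidative phosphorylation genes were set beside them as the most similar groups. The 387 F125A and 721 WT clusters of the 69 mitochondrial ribosomal protein genes compare with 550 F125A and 560 WT clusters in 73 cytosolic ribosomal protein genes. The pooled log2 ratio was 0.06 (-0.12 to 0.25) for the mitochondrial and 0.94 (0.76 to 1.11) for the cytosolic group, and these intervals do not overlap. The mitochondrial group is also the longer, with a median gene length of 10.99 kb against 4.80 kb in the cytosolic group. Relative to genes of similar length, the medians were -0.21 (-0.42 to 0.09) for 17 mitochondrial and 0.12 (-0.02 to 0.48) for 19 cytosolic genes, and these intervals overlap. The 75 genes of oxidative phosphorylation subunits, with 435 F125A and 761 WT clusters and a median length of 10.6 kb, had a pooled ratio of 0.16 (-0.02 to 0.33) and a median of -0.08 (-0.47 to 0.07) relative to similar length. No test of the differences between gene groups was run.

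**Figure D3:**
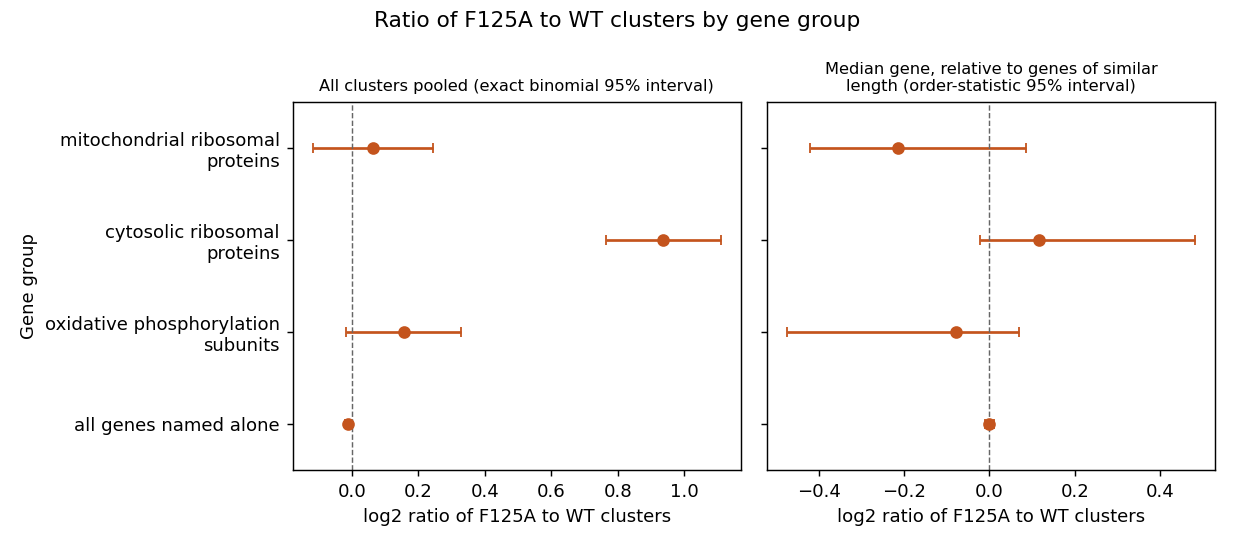
Log2 ratio of F125A to WT clusters (horizontal axes) for 4 groups of genes (rows), from all clusters pooled (left, exact binomial 95% intervals) and as the median gene relative to genes of similar length (right, order-statistic 95% intervals). On the left the mitochondrial group (0.06) lies near 0 and the cytosolic group at 0.94, and on the right the 2 intervals overlap.

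Members below the minimum of 20 clusters varied around few counts. The 52 genes held 112 F125A and 191 WT clusters, a pooled log2 ratio of 0.19 (-0.16 to 0.54), with 0 to 7 F125A and 0 to 15 WT clusters each. More F125A than WT clusters were found in 11 of all 69 genes, beside 6.91% of all 11805 genes, and all 11 were among these thinly covered genes. They include MRPS2 (6 F125A, 4 WT), of the bacterial S2 family, and MRPL38 (7 and 6), specific to mitochondria, the only members with 10 or more clusters at 2-fold or more toward F125A (1.45, interval -0.53 to 3.82, and 1.16, -0.61 to 3.03). These are 2 of 26 members with 10 or more clusters, against 3.61% of 7572 genes, a share that gives about 1 gene of 26, and both intervals include 0. None of the 26 lay 2-fold or more toward WT, against 3.47%, which also gives about 1 gene. MRPL45, which holds the ribosome at the inner membrane, had 4 F125A and 15 WT clusters (-0.72, -2.99 to 0.71), and RefSeq lists a pseudogene of 42.4 kb named after it, so its counts are uncertain too. Of the 69 genes, 5 had clusters in the F125A list only, beside 2.15% of all genes, and each had 1 cluster: MRPL16, MRPL36, MRPL44, MRPL55 and MRPS7. Clusters in the WT list only were found in 7 genes, beside 9.7% of all genes. MRPL21 had 6 of them and the others 1 each. Of the MRPS18 paralogs, MRPS18A had 6 F125A and 8 WT clusters, MRPS18B 1 and 1, and MRPS18C none and 1. RefSeq lists 9 further MRP genes with no cluster named for them alone, of 0.677 to 14.3 kb, MRPL34 being the longest.

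Most places recovered with F125A were also recovered with WT. Of 387 F125A clusters, 317 shared 1 nt or more with some WT cluster of their strand, 81.9% (77.7 to 85.6%), against 85.3% (85.1 to 85.4%) for all genes named alone. Of 721 WT clusters, 318 overlapped an F125A cluster, 44.1% (40.4 to 47.8%), against 44.7% (44.6 to 44.9%). The F125A list is the shorter, so a WT cluster without a partner is not shown to be lost with F125A. Joined where they overlap, the clusters made 782 places, of which 309 were shared, 70 were found with F125A only and 403 with WT only. Places were not counted over all genes, so these numbers are not read as a trait of the member genes. Partner shares for single genes were computed for the members only, so they have no like value over all genes. Across the 17 genes with at least 20 clusters, 61.5 to 100% of F125A clusters had a partner (median 90.5%), as had 23.8 to 63.5% of WT clusters (median 46.2%). MRPL3 had the highest WT share, with 40 of 63 WT clusters partnered, and 40 of its 43 F125A clusters. MRPS31, with 5 of 21 WT clusters partnered, had the lowest WT share. WT clusters without a partner were most numerous in MRPS28 (48), MRPS27 (45) and MRPS6 (30), and F125A clusters without one in MRPS27 (9), MRPL42 (6) and MRPS25 (5). MRPL13 and MRPS31 had none of the last kind, with all 7 and all 5 F125A clusters partnered.

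**Figure D4:**
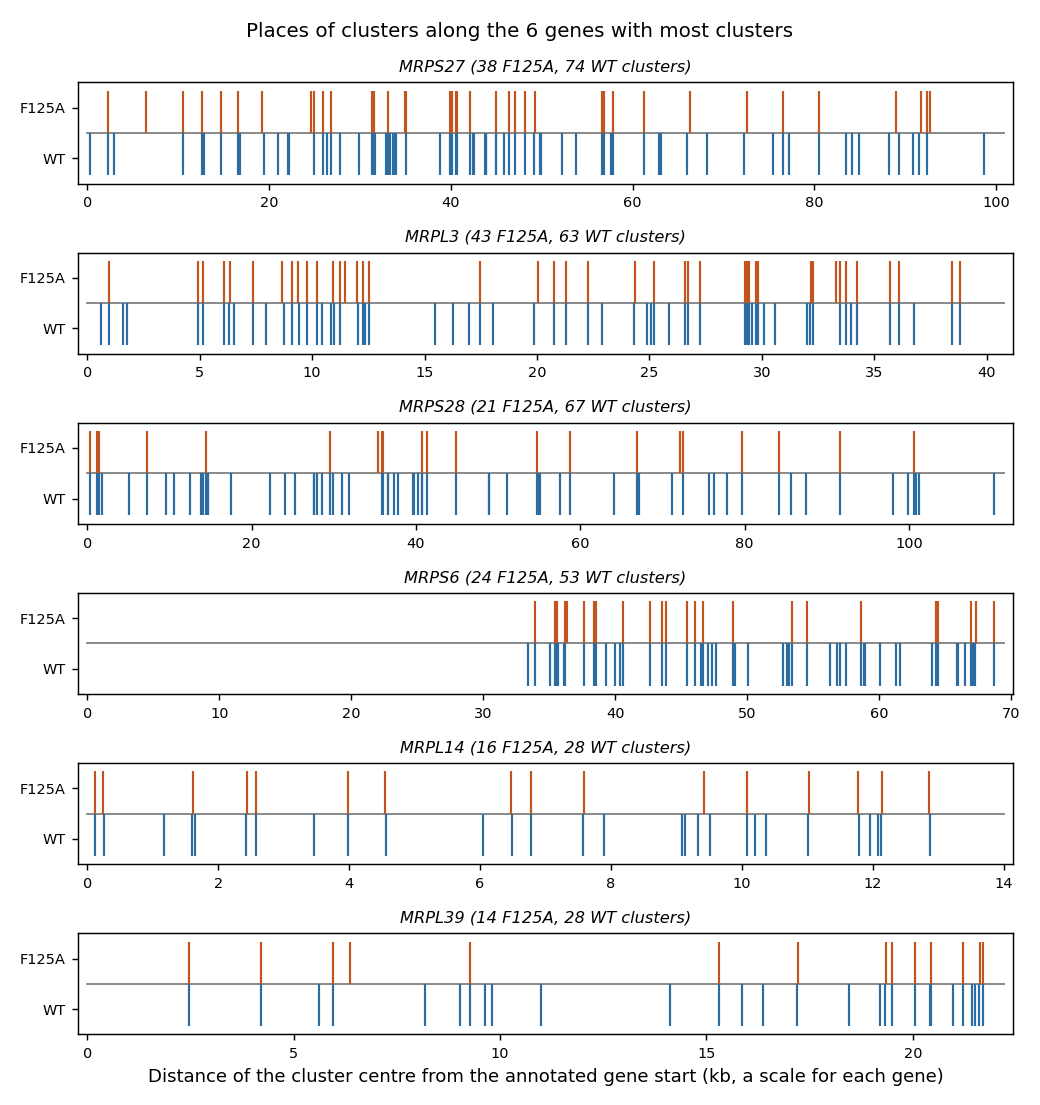
Places of F125A clusters (orange, above each line) and WT clusters (blue, below) along the 6 genes with most clusters, as distance of the cluster centre from the annotated gene start in kb, 1 row per gene with its own scale. F125A clusters mostly face a WT cluster, and MRPS6 shows none over its first 33 kb, where clusters name 2 genes and are not drawn.

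Clusters lay at many places along the well covered genes rather than gathered at 1 site, though parts of some genes held few or none. In MRPS27, split into 3 parts of equal length from the gene start, there were 14, 17 and 7 F125A and 25, 34 and 15 WT clusters. MRPL3 had 17, 9 and 17 F125A and 24, 17 and 22 WT clusters. MRPS28 had 9, 8 and 4 F125A and 31, 22 and 14 WT clusters. MRPL39 had 4, 1 and 9 F125A and 4, 7 and 17 WT clusters, most of them toward the end. MRPL42 had 1 F125A and 0 WT clusters in its last part, and MRPL1 had 0 F125A and 7 WT clusters there. The farthest MRPL22 cluster began 10247 nt from the gene start in the F125A list and 25443 nt in the WT list. In MRPS25, a gene of 23065 nt, the farthest began 12519 nt from the start in the F125A list and 12375 nt in the WT list. In MRPS6, at chr21:34073578-34143030, the first cluster named for it alone lay 33.9 kb from the gene start in the F125A list and 33.3 kb in the WT list, because clusters nearer the start name MRPS6 and SLC5A3 together. MRPL3 holds the small nucleolar RNA gene SNORA58 and MRPL23 holds SNORD131 and MIR675. No cluster of either list lay over any of the 3, and the nearest was 329 nt from SNORA58.

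Near gene starts, the share of F125A clusters was the higher in these genes as in the whole series. Within 1 kb of the annotated start lay 36 of 387 F125A clusters, 9.30% (6.60 to 12.6%), and 42 of 721 WT clusters, 5.83% (4.23 to 7.79%), and these intervals overlap. For all genes the shares were 3.48% and 2.02%. In members under 30 kb they were 16.8% (11.7 to 23.1%) with F125A and 11.6% (8.23 to 15.8%) with WT, against 12.7% and 9.74% for all genes of that length. MRPL28, of the bacterial L28 family, had 4 F125A and 4 WT clusters within 1 kb of its start, which are all its clusters. Of the F125A ones, the first lay at chr16:370461-370504, 34 nt from the start, and a WT cluster at chr16:370461-370511 covered it. MRPS15 had 3 F125A and 5 WT clusters there, and MRPL17 3 and 2. The last 5 kb before the gene end held 95 F125A clusters, 24.5%, and 150 WT clusters, 20.8%, against 5.27% and 3.82% for all genes, which are longer.

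F125A clusters were longer than WT clusters by a few nucleotides at the median. The F125A median was 65 nt (interval of the median 62 to 67 nt, quartiles 51 and 85 nt) and the WT median 60 nt (58 to 61 nt, quartiles 47 and 76 nt), against 64 and 60 nt for all genes. In 13 of the 17 genes with at least 20 clusters, the F125A median was the longer. The share of all genes with a longer F125A median was not computed, so this count is not read as a trait of the members. Clusters without a partner had medians of 74.5 nt with F125A and 55 nt with WT, whereas clusters with a partner had 64 and 66 nt. Over all genes the medians were 68 and 57 nt without a partner and 63 nt in both lists with one. In 299 cases 1 F125A and 1 WT cluster overlapped only each other. The F125A cluster was the longer in 141 of these, 47.2% (41.4 to 53.0%), the WT cluster in 148, and 10 were equal, with a median overlap of 57 nt. Over all genes named alone there were 136712 such pairs. The F125A cluster was the longer in 58859 of them, 43.1% (42.8 to 43.3%), and the WT cluster in 70826. A longer cluster has a greater chance to overlap another, so length and partnership are not independent measures. Clusters with a partner were the longer in the WT list (66 against 55 nt) but the shorter in the F125A list (64 against 74.5 nt). The cause of either difference was not tested.

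**Figure D5:**
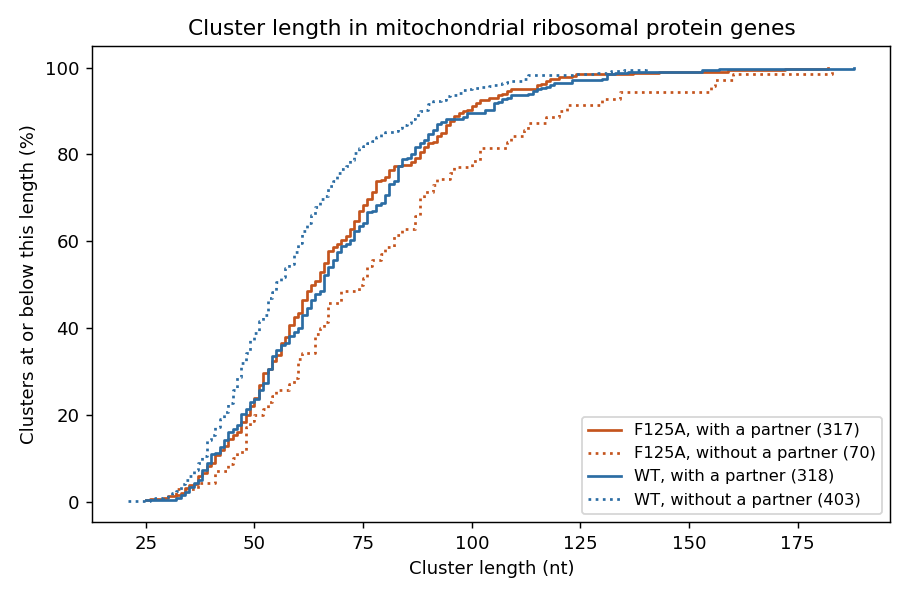
Percentage of clusters at or below each length in nt (horizontal axis), for F125A and WT clusters of the mitochondrial ribosomal protein genes with and without a partner in the other list. The curves with a partner lie close together (medians 64 and 66 nt), while F125A clusters without one (74.5 nt) lie to the right of WT clusters without one (55 nt).

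Inserts of at most 80 nt were selected for the libraries, yet 109 F125A clusters (28.2%) and 153 WT clusters (21.2%) of these genes were longer, against 26.2% and 20.6% for all genes, so such a cluster spans more than 1 insert. The longest F125A cluster, of 183 nt, lay in MRPS21 at chr1:150294213-150294395, 352 nt from the gene start, and overlapped no WT cluster. Next came F125A clusters of 182 nt in MRPS6, 172 nt in MRPS15, 160 nt in MRPL39 and 159 nt in MRPS27. The longest WT cluster, of 188 nt, lay in MRPS27 at chr5:72294217-72294404 and held an F125A cluster of 109 nt whole. It was followed by WT clusters of 157 nt in MRPS27, 153 nt in MRPS6, and 140 nt in MRPL39 and in MRPS31. At 100 nt or more there were 47 F125A clusters, 12.1%, and 53 WT clusters, 7.35%. The shares over all genes at this length were not computed, so these values are not read as a trait of the member genes.

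Other genes of mitochondrial translation were taken from 4 lists. The 5 mitoribosome proteins not named MRP had 40 F125A and 71 WT clusters (pooled log2 ratio 0.13, -0.46 to 0.71), most of them in PTCD3 (19 and 36), a pentatricopeptide repeat protein of the small subunit, and DAP3 (18 and 31), its GTP-binding protein. All 12 listed translation factors had clusters, 78 and 144 in all (0.08, -0.34 to 0.49). GFM2 (21 F125A, 25 WT, log2 ratio 0.72, -0.20 to 1.61) and MRRF (13 and 29, -0.14), both acting in ribosome recycling, had the most. Of 23 genes for ribosome assembly and mitochondrial RNA, 20 had clusters, 275 and 441 in all (0.28, 0.06 to 0.50). LRPPRC, which stabilises mitochondrial messenger RNA, had 77 and 121 (0.32, -0.12 to 0.73), and MTG1, a GTPase of large subunit assembly, 54 and 71 (0.57, 0.03 to 1.10). Relative to genes of similar length the median of the 10 assembly genes with at least 20 clusters was -0.01. The 16 mitochondrial aminoacyl-tRNA synthetase genes with clusters had 279 and 562 (-0.05, -0.26 to 0.16). FARS2, the phenylalanine enzyme, had 58 and 165 (-0.53, interval below 0 with its upper end at -0.11) in a gene of 521650 nt, and lay at -0.11 relative to similar length, while RARS2, the arginine enzyme, had 45 and 78 (0.18). Of the 26 genes in these 4 lists with at least 20 clusters, none lay 2-fold or more toward F125A, against 1.99% of all genes, or toward WT, against 2.51%, shares that give less than 1 gene of 26 each way. Some genes of the lists with fewer clusters lay beyond 2-fold, but no share over all genes with so few clusters was computed. MTRF1L, with 0 F125A and 8 WT clusters, lay at -2.21, and its interval includes 0 (upper end 0.19).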

How the data were processed

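Per the labels' protocols, reverse transcription primers carried identifiers of 4 nt and inserts of 20 to 80 nt were selected. The submitters' processing notes name cutadapt, STAR and hg38. Not given in the sources used here are tool versions, how clusters were called, whether the control served as background and how a group's libraries were pooled. The deposited lists, per the file headers, give chromosome, start, end, gene, region and strand, and hold no counts, scores or p-values. Printed starts are 1 higher than the 0-based ones of the lists.

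Repeated rows were dropped (6 F125A and 14 WT rows of the member genes). Clusters naming several genes count in the list totals only. Genes were matched to RefSeq GRCh38.p14 by symbol (68 members) or synonym (MRPS36), and gene starts and ends are RefSeq's. Partners overlap by at least 1 nt on the same strand. Shares carry exact (Clopper-Pearson) intervals, medians order-statistic intervals, and the subunit difference a normal-approximation interval on the log scale. Intervals treat clusters as independent and those of single genes leave out the added 1. Values were computed with Python 3.11.15, pandas 2.3.3, NumPy 2.4.6 and SciPy 1.17.1, and the functions were tested on simulated data. The members and lists were chosen with earlier results of these data known. Named were members with at least 20 clusters, those found in 1 list only, those with most unpartnered, longest or start-near clusters, the MRPS18 paralogs, members holding small RNA genes and up to 2 genes of each pathway list. MRPS2, MRPL38, MRPL45, MRPL34 and MTRF1L were chosen after their values were seen.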

Additional observations from a re-analysis of the deposited data

Results flagged for a closer look

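In each list 78 clusters name both MRPS6 and SLC5A3, a transporter gene inside MRPS6, at chr21:34073993-34105719. They were outside the main counts and exceed the 3 that a count of 0 allows. All 78 are the same in both lists, as part of a stretch of 5433 rows that is word for word identical in both, so they carry no comparison of F125A with WT. The other such clusters, 2 in each list, name MRPS24 and URGCP-MRPS24.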

How the results depend on the processing

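Of 59 recomputed values for 13 results, 53 stayed within the main interval or within 1.5 times the main count and 6 moved. The correction for gene length took the median log2 ratio to -0.21 and put 1 gene, MRPS31, 2-fold or more toward WT. A minimum of 10 clusters put 2 genes 2-fold or more toward F125A, MRPS2 and MRPL38, of 26 members, against 3.61% of 7572 genes. Among clusters of at least 50 nt only, 304 F125A and 498 WT clusters remained, and 71.4% of these F125A clusters had a partner. The cause of this lower share was not tested. Within 500 nt of the gene start lay 5.68% of F125A and 3.05% of WT clusters. Counting the clusters shared with SLC5A3 for MRPS6, chosen after seeing the data, gave a pooled ratio of 0.18 (0.01 to 0.35), which no longer includes 0, but those 78 clusters are the same in both lists and raise the ratio by construction. No clusters of these genes named alone belong to the stretch identical in both lists. Leaving it out could thus not change their counts, and shifted their ratios only through the list totals. No paired analysis was possible because each group has 1 list and no values per library, which also left no replicate to leave out. Read depth is unknown and limits every count.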
